A study of Mus musculus with 16 samples.

Results

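In mouse embryonic stem cells (ESC), 259 genomic regions were bound by Jarid2 and scored at least 1.5 times higher with the antibody against Jarid2 di-methylated at its lysine K116 (Jarid2-K116me2) than with the antibody against total Jarid2. These K116me2-higher regions were selected on the peak scores themselves. Peaks of both antibodies that shared at least 1 bp on the mm9 genome were merged, which gave 5001 regions, of which 3896 held peaks of both and were called common. The peak caller piles up its scores at 3100, so the 904 common regions that reached 3100 in either list were set aside. In the other 2992 common regions the highest Jarid2-K116me2 score was divided by the highest Jarid2 score, and a ratio of at least 1.5 defined the 259 regions. They were 8.66% of the common regions under 3100. The reverse, a Jarid2 score at least 1.5 times higher, was found in 428 regions (14.3%), and 2305 lay between. The 2733 common regions under 3100 that were not selected are called the other common regions.

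Total Jarid2 and Jarid2-K116me2 were each immunoprecipitated once from E14, a mouse ESC line grown in serum with LIF, so no score has a replicate error. A different set of 12 libraries measured H3K27me3, with 2 replicates in each of 6 groups. These cells were all derived from Jarid2 -/- ESC: the knockout itself (KO), the knockout rescued with a bacterial artificial chromosome (BAC) that carries Jarid2 (called WT), and the knockout rescued with the same BAC in which K116 was changed to alanine (K116A). Each was profiled as undifferentiated ESC in serum with LIF and as embryoid bodies (EB), formed by the hanging drop method without LIF over 8 days. Thus WT denotes a rescued knockout and not E14, and in both rescued lines Jarid2 came from a BAC inserted into the genome by a transposon. The study describes the 2 replicates of a group as independent biological samples of that line, so the p-values measure the spread between libraries of these lines. Read numbers per peak were not in the files analysed here, so the reads behind a single score are unknown. The paper describes similar read numbers for both antibodies and closely correlated read counts at their common peaks. It attributes peaks of a single antibody most likely to variable depth and background estimates. The library of ESC WT replicate 1 stood apart, with 1478 broad H3K27me3 peaks against 3554 to 14125 in the other libraries, and results that rest on it are given with and without it. ESC KO and ESC K116A replicate 1 came next, with 3554 and 5183 peaks. By the read numbers in the paper, ESC WT replicate 1 was the most deeply sequenced ESC library. The paper calls its second replicates the samples of higher quality.

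Polycomb repressive complex 2 (PRC2) silences developmental genes by methylating lysine 27 of histone H3. Jarid2 is a cofactor of PRC2 in ESC that helps to bring the complex to CpG-rich promoters and stimulates its enzymatic activity. PRC2 also methylates Jarid2 itself at K116, and the methylated lysine is bound by Eed, the PRC2 subunit that also recognizes H3K27me3.

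To show what the underlying DNA looks like, 200 bases are printed for the 4 regions with the highest ratio and for the 2 with the highest Jarid2-K116me2 score. Each stretch is the one nearest to the middle of its region that holds no annotated untranslated bases, read from the plus strand of mm9 (NCBIM37), with every CpG in capitals. The Fgd5 stretch is chr6:91929063-91929262 and holds 11 CpGs. The Ablim1 stretch is chr19:57388996-57389195, with 15 CpGs, and that of Fgf13 is chrX:56387041-56387240, with 14. The stretch of Itgav is chr2:83564892-83565091 and holds 24 CpGs. Those of Bmp3 and Pcdh15 are chr5:99284132-99284331 and chr10:72561890-72562089, with 15 and 25 CpGs. The number of CpGs thus differed more than 2 times between them, and their GC content ran from 57.0% in Fgf13 to 76.5% in Pcdh15.
Fgd5: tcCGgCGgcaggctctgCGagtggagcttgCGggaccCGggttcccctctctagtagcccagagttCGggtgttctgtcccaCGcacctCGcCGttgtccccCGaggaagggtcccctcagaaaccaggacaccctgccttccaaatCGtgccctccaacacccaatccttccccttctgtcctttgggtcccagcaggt
Ablim1: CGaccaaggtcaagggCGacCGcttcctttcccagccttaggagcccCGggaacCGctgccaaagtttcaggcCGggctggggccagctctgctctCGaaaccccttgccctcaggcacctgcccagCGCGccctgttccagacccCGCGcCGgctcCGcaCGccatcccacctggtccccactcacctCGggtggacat
Fgf13: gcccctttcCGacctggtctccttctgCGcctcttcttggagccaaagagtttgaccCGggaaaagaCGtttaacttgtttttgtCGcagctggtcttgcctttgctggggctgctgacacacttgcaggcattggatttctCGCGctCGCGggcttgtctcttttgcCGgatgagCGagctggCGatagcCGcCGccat
Itgav: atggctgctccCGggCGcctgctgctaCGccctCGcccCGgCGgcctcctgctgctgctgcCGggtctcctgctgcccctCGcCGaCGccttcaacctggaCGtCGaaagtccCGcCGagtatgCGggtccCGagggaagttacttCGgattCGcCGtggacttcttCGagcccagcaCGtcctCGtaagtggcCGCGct
Bmp3: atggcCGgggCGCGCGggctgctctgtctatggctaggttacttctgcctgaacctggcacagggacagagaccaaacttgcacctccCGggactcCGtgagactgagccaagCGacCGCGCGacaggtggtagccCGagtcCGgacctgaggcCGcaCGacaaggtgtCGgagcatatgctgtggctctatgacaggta
Pcdh15: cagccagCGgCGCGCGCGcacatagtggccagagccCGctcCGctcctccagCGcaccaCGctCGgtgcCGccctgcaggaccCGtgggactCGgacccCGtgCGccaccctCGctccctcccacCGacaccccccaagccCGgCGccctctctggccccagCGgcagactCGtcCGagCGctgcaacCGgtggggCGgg

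The regions with the highest ratio had low Jarid2 scores. The largest ratio was at Fgd5, which encodes an exchange factor for the GTPase Cdc42, where the Jarid2 score was 104.4 and the Jarid2-K116me2 score 413.4, a ratio of 3.96. Its region, chr6:91928431-91929894, contains the start site of the gene, and its middle lies in an intron 290 bp from that site. At Ablim1, an actin-binding LIM protein, the scores were 84.2 and 330.7, a ratio of 3.93, in a region centred on an exon (chr19:57388541-57390020). This Jarid2 score was below 91.9, the lowest score listed for Jarid2-K116me2, so a region this weak for the methylated form would not have been listed at all.

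Fgf13, which encodes an intracellular FGF homologue that binds sodium channels, had scores of 198.8 and 658.6 over a start site on chromosome X (chrX:56386648-56388001), a ratio of 3.31. Itgav, the alpha subunit of several integrins, had scores of 85.2 and 278.5 (ratio 3.27; chr2:83563992-83565616, exon). Unlike these 4, the region of Flt4, a receptor tyrosine kinase of lymphatic endothelium, lay inside an intron 25201 bp from the nearest start site, with scores of 67.4 and 205.2 (ratio 3.05). The next by ratio were Arap2, a GTPase-activating protein, at 3.04, the lincRNA Gm16801, whose start site lay 7003 bp away, at 2.92, the gene of the RNA-binding protein Stau2 at 2.82, 6330512M04Rik at 2.82 and the ubiquitin-binding Cuedc1 at 2.82. Over these 10 regions no Jarid2 score exceeded that of Fgf13.

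The highest Jarid2-K116me2 score, 3078.9, was at Bmp3, a ligand of the BMP family, where the Jarid2 score was 2001.0 (ratio 1.54; chr5:99282990-99285281, exon). Pcdh15, a cadherin of the inner ear hair cells, followed with 3017.3 against 1890.5 (chr10:72560913-72563787, exon). Mamld1, a mastermind-like protein gene on chromosome X, had 2819.4 against 1751.3. The region nearest to Zfhx3, a homeobox and zinc finger factor, reached 2791.4 against 1674.3 in an annotated exon 78834 bp from the closest start site. The kinase gene Prkg2 (2766.1 against 1841.4) and the transporter genes Slc22a23 (2733.9 against 1655.1) and Slco3a1 (2660.8 against 1739.6) were also among the 10 highest. So were Pabpc1l2b-ps and Pabpc1l2a-ps, neighbouring pseudogenes on chromosome X with 2769.0 and 2725.4 for Jarid2-K116me2 and 1771.2 and 1722.2 for Jarid2. These names mark near-identical copies, and reads that fit several places were reported at a single one, so the scores of both are uncertain. The ratio was between 1.502 and 1.667 in all 10 regions.

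**Figure D1:**
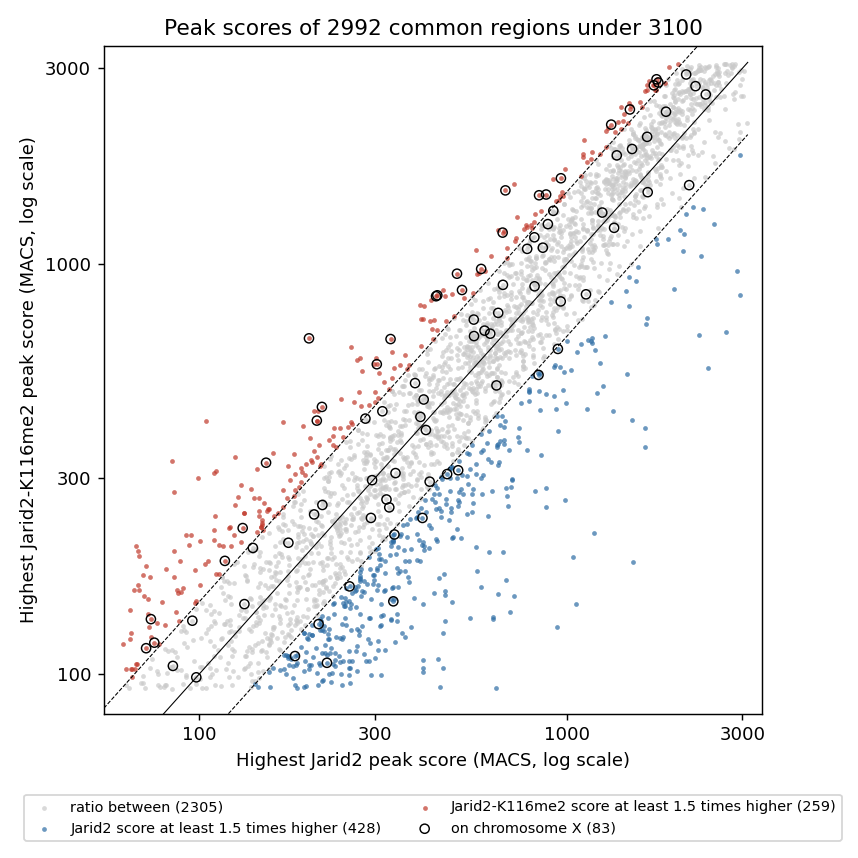
Highest Jarid2 score (horizontal axis) and highest Jarid2-K116me2 score (vertical axis), both MACS scores without unit on log scales, of the 2992 common regions under 3100, each a point, with a solid line at equal scores and dashed lines at a ratio of 1.5 in either direction. The 259 regions above the upper line spread farther from it at low scores, up to the ratio of 3.96 at Fgd5, and circles mark the 83 regions on chromosome X.

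The median Jarid2 score was 215.6 over the 259 regions (quartiles 116.8 and 635.0), and the median Jarid2-K116me2 score was 402.1 (quartiles 227.3 and 1061.9). In the other common regions these medians were 569.8 and 519.9. The K116me2-higher regions thus stood out more by a low Jarid2 score than by a high Jarid2-K116me2 score, which the selection favours, and this is a description of what chose them. The median ratio was 1.67 among them and 1.02 over all common regions under 3100. Their share fell with the level of the scores. They were 19.8% of regions whose geometric mean of both scores was under 150, and 5.86% of those from 1200 to 3100. In the levels between, the shares were 11.3% (150 to 300), 6.74% (300 to 600) and 6.23% (600 to 1200). The score limits favour such a fall. Jarid2 peaks were listed from 62.1 on and Jarid2-K116me2 peaks only from 91.9 on, so the weakest common regions tend to high ratios. At the top, a ratio of 1.5 with a Jarid2-K116me2 score under 3100 leaves no room for the highest Jarid2 scores. What part of the fall this makes up was not tested. A Jarid2 score under the lowest listed Jarid2-K116me2 score was found in 44 of the 259 regions and in 33 of the 2733 others.

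At the threshold, Samd13 (scores of 181.3 and 272.2), Rhpn2 (65.5 and 98.3) and Prkg2 had the lowest ratios, each 1.502. Dmrta1 (1298.8 and 1947.3) and St8sia5 (553.1 and 829.2) fell just outside at 1.499, and Agap2 (1886.0 and 2825.8) at 1.498.

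The shape of the peaks differed in the same direction as the scores, and was measured in the same libraries. The K116me2-higher regions were narrower, with a median width of 1529 bp (quartiles 1102.5 and 2112) against 1997 bp (1498 and 2644) in the others. Jarid2-K116me2 peaks covered more bases than Jarid2 peaks in 106 of the 259 regions (40.9%) and in 166 of the 2733 others (6.07%). Where each antibody had 1 peak, the Jarid2-K116me2 peak was 0.957 times as wide as the Jarid2 peak in the median of 248 K116me2-higher regions and 0.789 times in 2549 others. A total of 10 K116me2-higher regions held 2 or more Jarid2 peaks, among them Cuedc1 and Pcdh15, and 2 held 2 or more Jarid2-K116me2 peaks. In the other common regions the order was the opposite, with 24 regions of the first kind and 175 of the second. Width and score depend on each other in a peak list, so none of this is independent of the rule.

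Positions in the genome were not used by the rule. The middle of a region lay within 1 kb of an annotated transcription start site (TSS) in 201 of the 259 K116me2-higher regions (77.6%, 95% Wilson interval 72.1% to 82.3%) and in 1899 of the 2733 others (69.5%, 67.7% to 71.2%). Intervals on shares of regions cover counting error only. The difference was 8.12 percentage points (95% interval 2.40 to 13.1), and in the 428 regions that scored higher for Jarid2 the share was 53.3% (48.5% to 57.9%). The median distance was 351 bp, against 485 bp in the others and 838.5 bp in those higher for Jarid2. The surplus near start sites was matched by a smaller share from 1 to 10 kb, 10.4% (7.26% to 14.7%) against 17.6% (16.2% to 19.03%). Beyond 10 kb the shares were close, 11.97% (8.56% to 16.5%) against 12.95% (11.7% to 14.3%). The nearest start site lay inside the region itself in 183 K116me2-higher regions (70.7%, 64.8% to 75.9%) and in 69.4% (67.6% to 71.1%) of the others. By this measure both classes were close, and the part of region width in either measure was not tested.

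The nearest start site belonged to a protein-coding gene in 227 K116me2-higher regions (87.6%) and in 87.4% of the others. The middle of the region was in an exon in 47.9% (41.9% to 53.9%) against 39.7% (37.9% to 41.6%), in an intron in 34.7% against 38.1%, and in neither in 17.4% against 22.2%. Exonic positions were thus more frequent and intergenic ones less frequent in the counts, but the intervals of intergenic positions overlapped (13.2% to 22.5% against 20.7% to 23.8%). The 31 regions beyond 10 kb included Flt4 and Zfhx3. The farthest of them lay 284345 bp from Pxmp3, which was named after its values were seen.

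**Figure D2:**
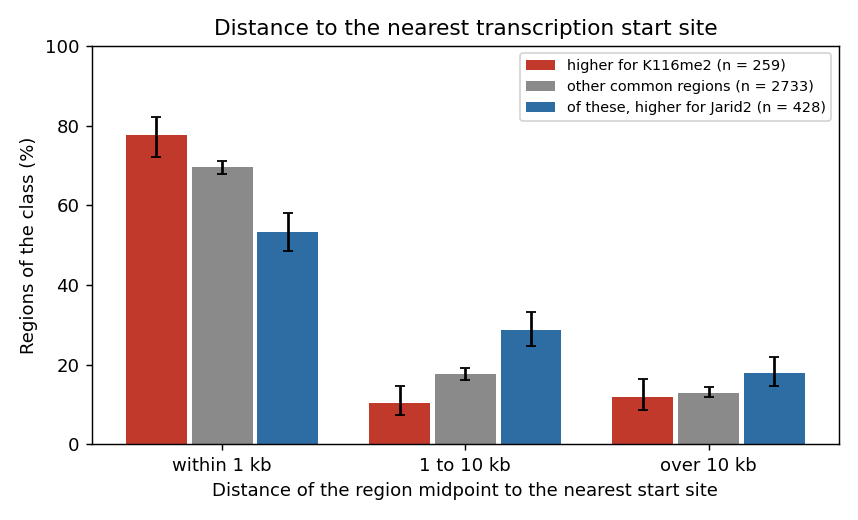
Share of regions (vertical axis, %) whose middle lay within 1 kb, from 1 to 10 kb or over 10 kb from the nearest TSS, with 95% Wilson intervals as error bars. K116me2-higher regions had 77.6% within 1 kb, the other common regions 69.5%, and the regions higher for Jarid2, which are part of the others, 53.3%.

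The DNA of the K116me2-higher regions was richer in CpG. Over the central 1 kb, the CpG observed/expected ratio (the number of CpGs divided by that which the C and G content would give in any order) had a median of 0.736 (quartiles 0.633 and 0.830) against 0.678 (0.564 and 0.787) in the others and 0.563 in regions higher for Jarid2. A ratio of at least 0.6, a common criterion for CpG islands, was met by 211 of the 259 regions (81.5%, 76.3% to 85.7%), by 67.1% (65.3% to 68.8%) of the others and by 41.1% of those higher for Jarid2. GC content followed the same order, with medians of 63.8%, 60.9% and 56.6%. In the central 200 bp the median was 19 CpGs against 14 in the others. Of the 6 printed stretches, which are of the same length, Itgav and Pcdh15 are above 19, and Ablim1, Bmp3, Fgf13 and Fgd5 are below it. All but that of Fgd5 lie 96 to 361 bases off the middle, so they are not the windows behind this median. Single regions departed from the rule of thumb, since at Zfhx3 the ratio was 0.384 and at Mamld1 0.459.

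Position and base composition moved together. The other common regions were limited to the 1338 whose GC content lay between the quartiles of the K116me2-higher regions. Against these, the share within 1 kb of a TSS was 77.6% against 77.5%, and the difference of 8.12 points became 0.102. All 259 K116me2-higher regions stayed in, 27 of them under 55% GC, so GC content was not matched on both sides. By GC content, the K116me2-higher share of all common regions under 3100 rose from 5.60% in regions under 55% GC to 15.7% in those of 70% or more. Within the level of 60 to 65% GC, 56 of 72 K116me2-higher regions (77.8%) and 678 of 861 others (78.7%) had a TSS within 1 kb. Under 55% GC the shares were also close, 44.4% and 45.3%. At the remaining levels the K116me2-higher share was the larger one. It was 68.9% against 61.7% from 55 to 60% GC, 86.8% against 80.6% from 65 to 70%, and 92.3% against 85.6% at 70% or more. Sequencing and immunoprecipitation can both depend on GC content, and with 1 library per antibody such dependence cannot be told apart from binding.

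**Figure D3:**
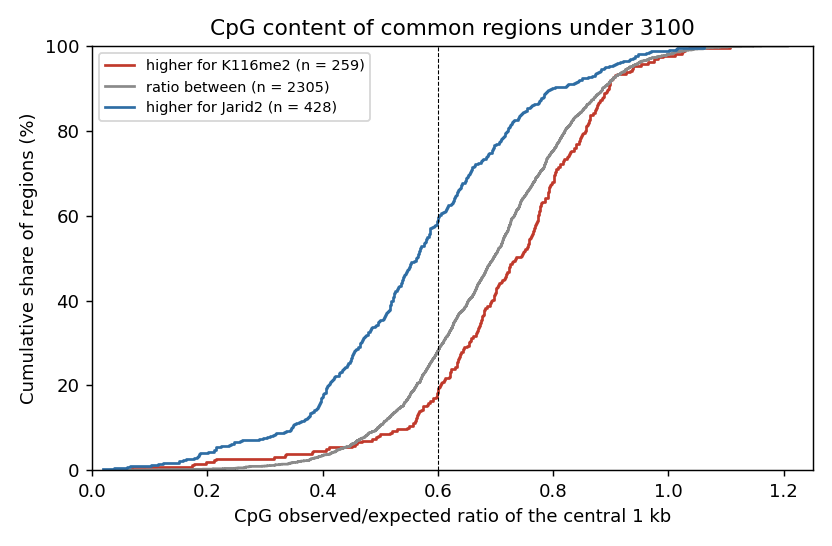
Cumulative share of regions (vertical axis, %) up to each CpG observed/expected ratio of the central 1 kb (horizontal axis, no unit) for the 259 K116me2-higher regions, the 2305 regions with a ratio of scores between, and the 428 higher for Jarid2. At the dashed line the 3 curves are apart, since 81.5% of the K116me2-higher regions and 41.1% of those higher for Jarid2 lie at 0.6 or above.

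The share of K116me2-higher regions was not even over the chromosomes. On chromosome X, 26 of 83 common regions under 3100 were K116me2-higher (31.3%, 22.4% to 41.9%), against 233 of 2909 on the autosomes (8.01%, 7.08% to 9.05%). Among the 19 autosomes the share ran from 3.96% on chromosome 11 (9 of 227 regions) to 13.6% on chromosome 10, and all of them had intervals that ended below the lower bound of chromosome X. The median ratio of scores was 1.26 on X and 1.02 on the autosomes, with the selected regions included. Among the other common regions, which the rule holds under a ratio of 1.5, it was 1.09 on X and 0.990 on the autosomes, a smaller difference. Regions higher for Jarid2 made up 13.3% on X (11 regions) and 14.3% on the autosomes. Fewer common regions of X reached 3100 (9.78% against 23.5%). Of the 60 regions with a Jarid2-K116me2 peak alone, 1 was on X.

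The X-linked regions spanned all score levels, with 4 K116me2-higher and 5 other regions where the geometric mean of both scores was under 150, and 6 and 11 where it was 1200 or more. They were start sites for the most part: 22 of the 26 had a TSS within 1 kb, and 22 had a CpG ratio of at least 0.6. Besides the first start site of Fgf13 described above, a second one (chrX:56819079-56822055) had scores of 1482.2 and 2380.1, and Bcorl1, a corepressor gene named after its values were seen, also had 2 regions, with ratios of 1.98 and 1.58. Other genes there, also named after their values were seen, were Nhs (680.0 and 1511.2), Atp2b3, a calcium pump of neurons (215.6 and 448.1), and Iqsec2, a synaptic exchange factor (208.8 and 415.0). Without chromosome X the other shares hardly moved, with a TSS within 1 kb of 76.8% of the 233 autosomal K116me2-higher regions and of 69.5% of the 2676 others. What moves the X-linked scores was not tested.

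**Figure D4:**
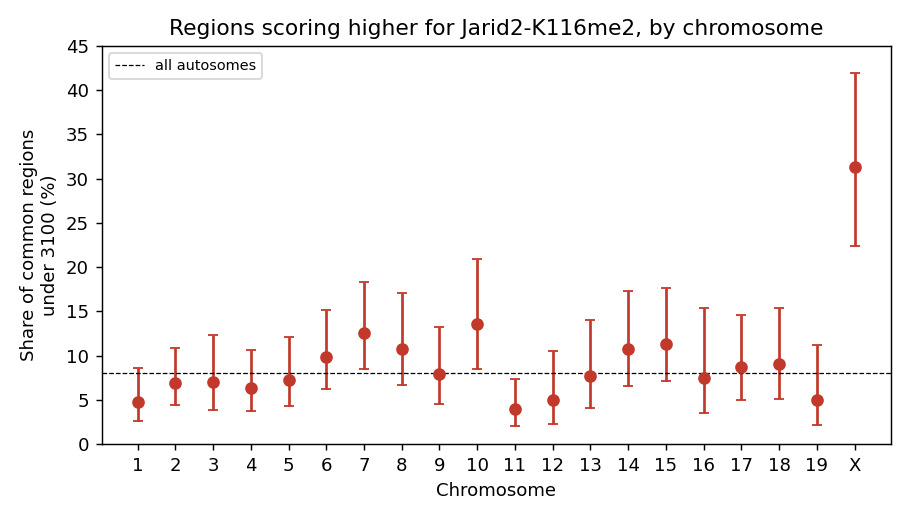
Share of the common regions under 3100 that were K116me2-higher (vertical axis, %), by chromosome, with 95% Wilson intervals, and a dashed line at the share of all autosomes (8.01%). Chromosome X, at 31.3%, lies above the intervals of all 19 autosomes.

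Another K116me2-higher region lay within 100 kb of 9 of the 259 regions and within 1 Mb of 71. These counts were not compared with those of the other common regions. Apart from Fgf13 and Bcorl1, only Panx2 and Coro2b had 2, both named after their values were seen. Bmp3 and Prkg2, both among the strongest, are neighbours, 181861 bp apart. Gm10021, Gm10409, Gm3002 and Gm3248 on chromosome 14, also named after their values were seen, are predicted genes in a cluster of similar copies, so their scores may be uncertain in the same way as those of the Pabpc1l2 pseudogenes.

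To see which genes these were, the regions with a protein-coding TSS within 5 kb were compared with 11 lists of genes. Of all such regions under 3100, 208 of 2310 (9.004%) were K116me2-higher, which is the background for the lists. Among the regions left under 3100, transcription factor genes, the classical Polycomb targets, were below it. Most of their common regions had reached 3100 and were not compared. These were 94 of 127 for homeobox genes outside the Hox clusters and 94 of 133 for other lineage factors. Over all common regions with a protein-coding TSS within 5 kb, 777 of 3087 had reached 3100. Of the Hox clusters, 11 of 15 common regions had reached 3100 and none of the 4 left was K116me2-higher. Of the other homeobox genes 1 of 33 was, namely Cdx1, a regulator of posterior patterning (scores of 260.7 and 406.8), and of other lineage factors 1 of 39, namely Zic5, a zinc finger factor of the neural tube (776.3 and 1231.3). No region was K116me2-higher among axon guidance and adhesion genes (0 of 45) and among synaptic proteins and neuronal transporters (0 of 34). The remaining lists, with 9 imprinted, 6 Polycomb subunit, 4 pluripotency and 2 CDK inhibitor regions, also held none, but like the 4 Hox regions they are too small to be read against the background. Over all lists 17 of 328 regions were K116me2-higher (5.18%), and 45 were higher for Jarid2.

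The 17 regions came mostly from the list of signalling genes and that of channels and receptors, at shares near the background. Signalling ligands, receptors and inhibitors contributed 7 of 64 regions (10.9%). Besides both regions of Fgf13 and that of Bmp3, they included Vegfa, the main angiogenic factor, with scores of 208.4 and 414.6 in a region centred on an exon, 115 bp from a start site. Pdgfa, a growth factor of mesenchymal cells, had 303.3 and 589.7. Fgf2, which sustains many progenitor cells, had far higher scores of 1280.2 and 2107.5.

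Ion channels and neurotransmitter receptors contributed 8 of 94 regions (8.51%). The highest ratio among them was at Kcnip3, a calcium sensor that binds potassium channels, with scores of 65.2 and 126.0 (ratio 1.93). The kainate receptor genes Grik3 (564.2 and 1080.1) and Grik2 (262.8 and 460.9) and the potassium channel gene Kcnd2 (1109.3 and 2005.1) followed. The median ratio over all regions of a list was 1.06 for channels and receptors and 1.05 for signalling genes. In the 9 other lists it was below 1, against 1.05 over all 2310 regions with a protein-coding TSS within 5 kb. The ends were 0.593 over 4 regions of pluripotency factors and 0.975 over 9 of imprinted genes, lists too small to be read against that value. In the lists of 33 to 45 regions it ran from 0.827 for other lineage factors to 0.974 for axon guidance and adhesion and for synaptic proteins and neuronal transporters. Of those 2310 regions 285 were higher for Jarid2, among them 7 of 33 for homeobox genes and 11 of 39 for other lineage factors. The lists were drawn up with results of these data known, and these counts are descriptions.

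H3K27me3 was measured in other libraries and cells than the scores, and the rule did not use it. A region was called marked when a broad H3K27me3 peak overlapped it by at least 1 bp. K116me2-higher regions were marked less often than the other common regions in 12 of 12 libraries. The mean difference was -17.1 percentage points (SD 4.96, n = 12 libraries), and an exact permutation test over libraries (sign flips, two-sided) gave p = 0.000488, the smallest value that 12 libraries allow. Without ESC WT replicate 1 the mean difference was -18.4 points (SD 1.61, n = 11). The test covers the spread between libraries, which all look at the same regions.

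In ESC, marked K116me2-higher and other regions made up 23.9% and 40.5% in KO replicate 1 and 63.7% and 83.8% in KO replicate 2. In WT they were 6.18% and 8.27% in replicate 1, and 53.3% and 73.1% in replicate 2. In K116A they were 30.5% and 52.3% in replicate 1, and 59.1% and 78.4% in replicate 2. Replicate 2 was thus the higher one in all 3 lines, by more than any line differed from another within replicate 2. In EB the replicates were closer. KO had 37.8% and 55.3% in replicate 1 and 44.02% and 61.2% in replicate 2, WT had 35.5% and 53.2%, then 37.1% and 54.9%, and K116A had 40.5% and 58.6%, then 51.7% and 68.8%. The gap between K116me2-higher and other regions ran from -16.6 to -21.8 points in 11 libraries, and was -2.09 in ESC WT replicate 1, which had few peaks in all.

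**Figure D5:**
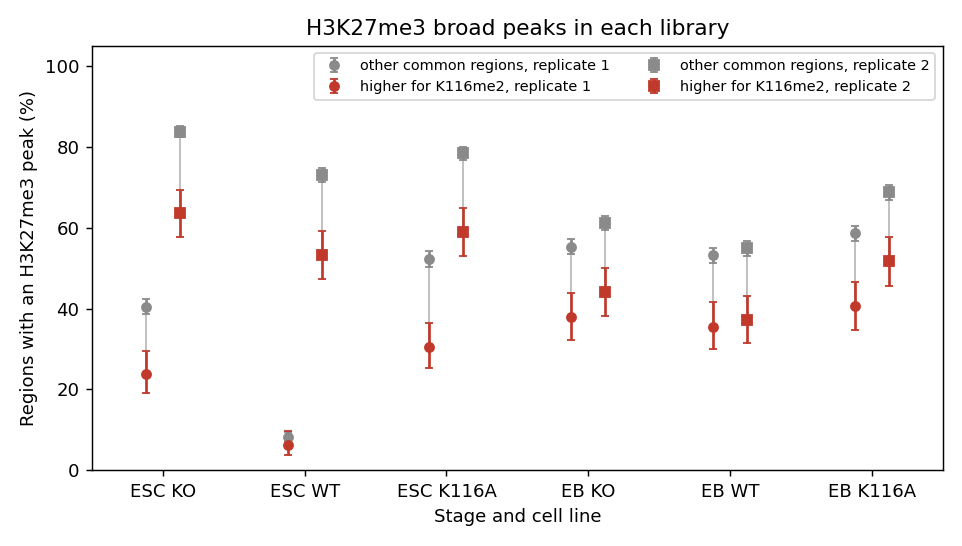
Share of regions with an H3K27me3 peak (vertical axis, %) in each of the 12 libraries, by stage and cell line, with 95% Wilson intervals over regions and a grey line that joins both kinds of region of a library. K116me2-higher regions (red) lie below the other common regions (grey) in each library, and circles (replicate 1) and squares (replicate 2) are farther apart in ESC than in EB.

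Some K116me2-higher regions were marked everywhere and many nowhere. No H3K27me3 peak was found in any of the 12 libraries at 61 of them (23.6%, 18.8% to 29.1%), against 10.9% (9.82% to 12.2%) of the others. Of those with the highest ratio, Itgav, Flt4, Arap2 and Gm16801 had no peak in any library, and Fgd5 had 1 in EB K116A replicate 2 only. Stau2 and Cuedc1 were marked in all libraries but ESC WT replicate 1, and Ablim1 in 2 ESC and 5 EB libraries. Among the strongest regions, Pcdh15 was marked in 12 of 12 and Zfhx3 in 2, both ESC. Slc22a23 was marked in 5 ESC libraries and in 1 of EB. The number of marked libraries was 4 in the median K116me2-higher region and 8 in the median other region.

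The gap in H3K27me3 was smaller against regions limited by Jarid2 score and hardly changed against regions limited by Jarid2-K116me2 score. In each case only the other regions were limited, and all K116me2-higher regions stayed in. Compared with the 1405 other regions whose Jarid2 score lay between the quartiles of the K116me2-higher regions, the mean difference was -6.41 points, and 11 of 12 libraries were below 0, with a range from -12.1 to 2.26. Compared with the 1283 other regions in the quartiles of the Jarid2-K116me2 score, it was -16.4 points and below 0 in all 12. By level of the geometric mean of both scores in ESC WT replicate 2, 36.4% of K116me2-higher and 39.9% of other regions were marked under 150, 35.5% and 54.8% from 150 to 300, 51.1% and 69.7% from 300 to 600, 75% and 84.9% from 600 to 1200, and 90.2% and 93.6% above. In EB WT replicate 2 the same levels had 25.5% and 30.04%, 22.4% and 37.6%, 27.7% and 49.8%, 60% and 61.96%, and 68.3% and 77.7%. K116me2-higher regions were lower at all 5 levels of both libraries, but the levels with the smallest gap were not the same. A low Jarid2 score is part of how the regions were chosen, and the share of marked regions among the others rose with the scores, so a lower share of marked regions cannot be told apart from lower Jarid2 scores. Compared with the 1338 other regions in the quartiles of the GC content, the mean difference was -18.2 points.

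Next, H3K27me3 was compared between conditions to ask whether these regions changed with differentiation, without Jarid2 or with K116A. None of the 6 comparisons passed the test, and each of them had an adjusted p of 0.987 (exact permutation over libraries, two-sided, Benjamini-Hochberg over 6). The lowest of the 6 before adjustment was 0.371, again by exact permutation. The share of marked K116me2-higher regions averaged 41.1% in the 6 EB libraries (range 35.5% to 51.7%) and 39.4% in the 6 ESC libraries (6.18% to 63.7%). It averaged 42.4% in the 4 KO, 45.5% in the 4 K116A and 33.0% in the 4 WT libraries. Set against the WT library of the same stage and replicate number, KO was higher in 4 of 4 pairs (by 2.32 to 17.8 points) and K116A in 4 of 4 (by 5.02 to 24.3). With 4 pairs the smallest exact permutation p (sign flips) is 0.125, which both reached, so this pairing cannot pass the test. The differences from WT were 9.36 and 12.5 points, with exact permutation p of 0.514 and 0.371 before adjustment. Without ESC WT replicate 1 they were 0.418 and 3.51 points, and the difference between EB and ESC was -4.98 in place of 1.67. The other common regions were also marked more often than in WT. In replicate 1 this was by 17.2 points in KO and 24.7 in K116A, and in replicate 2 by 8.47 and 9.59.

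Between stages the replicates disagreed. In replicate 1 the share was higher in EB (38.0%, SD 2.51, n = 3 lines) than in ESC (20.2%, SD 12.6), and in replicate 2 it was lower in EB (44.3%, SD 7.34) than in ESC (58.7%, SD 5.22). Both differences, 17.8 and -14.4 points, separated the 3 EB from the 3 ESC libraries completely, at the exact permutation p of 0.1 that is the smallest for 3 against 3. The other common regions did the same, with 22.0 and -16.8 points. The ESC libraries had 1478 to 5183 broad peaks in replicate 1 and 8579 to 9836 in replicate 2. Within a stage, 2 libraries against 2 cannot go below an exact permutation p of 0.333. In EB all KO and K116A libraries were above both WT libraries, by 4.63 and 9.85 points in the mean, each at that smallest exact permutation p of 0.333. The other common regions did so too, with EB means of 58.2% in KO, 63.7% in K116A and 54.1% in WT. The paper lists fewer sequenced reads for both EB WT libraries than for the other EB libraries. The part of depth was not tested.

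The gap between K116me2-higher and other regions did not pass either. It averaged -17.5 points in EB and -16.6 in ESC, and -17.8 in KO, -19.1 in K116A and -14.4 in WT. ESC WT replicate 1 decided these values. Without it the gap in ESC was -19.5 points, so that EB was 1.99 points closer to 0 (exact permutation p = 0.0346, adjusted p = 0.208), and KO differed from WT by 0.638 points in place of -3.45. In EB alone, where libraries were alike, the gap was -17.3 (SD 0.203) in KO, -17.8 (SD 0.124) in WT and -17.5 (SD 0.751) in K116A, with n = 2 each.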

How the data were processed

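Single reads of Jarid2, Jarid2-K116me2 and H3K27me3 ChIP-seq were mapped by the authors to mm9 with Bowtie2 2.1.0, reporting 1 place for reads that fit several. Peaks were called per sample against an input by the authors, with MACS 1.4.2 (Jarid2, Jarid2-K116me2) or MACS2 2.0.10 in broad mode (H3K27me3), the versions named in the submitters' processing notes. The deposited score of a narrow peak is minus 10 times the log10 of its p-value and is not normalized for depth. The scale of the deposited broad peak score is not given in the sources used here, and it served only for a stricter choice of peaks.

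Distances were taken from the region midpoint to the nearest start of any GENCODE transcript (mm9). Shares have 95% Wilson intervals. Groups of libraries were compared by exact permutation, and the functions were tested on simulated data. Scripts ran on Python 3.11.15 with scipy 1.17.1, pandas 2.3.3 and numpy 2.4.6, and figures were drawn with matplotlib 3.10.9. The regions, lists and tests were chosen with earlier results of these data known. Regions named are the 10 with the highest ratio, the 10 with the highest Jarid2-K116me2 score, 3 on each side of the threshold and up to 4 per list by ratio; others are said to be named after their values were seen, and 1 region that the rule names is not reported here. Alternatives covered the ratio, the score, the overlap, the distance, the regions compared with and the libraries. Replicate numbers were not taken to pair the libraries, since same-numbered libraries deviated together in ESC but not in all groups.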

Additional observations from a re-analysis of the deposited data

Results flagged for a closer look

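The change of H3K27me3 with differentiation had opposite directions in the replicates. The share of marked K116me2-higher regions was 17.8 percentage points higher in EB than in ESC in replicate 1 and -14.4 points in replicate 2, and every library moved in the direction of its replicate. The ESC libraries of replicate 1 had fewer broad peaks (1478 to 5183) than those of replicate 2 (8579 to 9836), which the paper calls the samples of higher quality. The difference between the replicates was not itself tested, and neither was the part of the peak number in it.

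Among the 6 ESC libraries, the gap between K116me2-higher and other regions of -2.09 points in ESC WT replicate 1 was farther from the others than the 95% limit of Dixon's test allows, a limit that chance passes in about 1 in 20 groups. This library also had the fewest broad peaks, 1478. The part of the peak number in the gap was not tested.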

How the results depend on the processing

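The number of K116me2-higher regions depended on the rule: it was 704 when the ratio had to reach only 5 to 4, 47 at a ratio of at least 2 and 142 where both scores had to reach 200, and between 215 and 264 under the other 6 alternatives. The surplus of start sites within 1 kb, 8.12 percentage points as reported, rose to 17.3 at a ratio of at least 2. It was 0.102 against other regions limited to the GC quartiles of the K116me2-higher regions, an alternative chosen after seeing the data. The remaining 14 alternatives gave 3.06 to 10.9 points. The surplus on chromosome X, 23.3 points, was 3.34 at a ratio of at least 2, which left 47 regions, and 21.9 to 27.8 otherwise. The lower share of regions with H3K27me3 kept its direction and stayed past the threshold in all 31 alternatives, from -5.44 points at the ratio of 5 to 4 to -26.3 at a ratio of at least 2, with -11.5 for broad peaks that scored at least 60, also chosen after seeing the data. The planned choice by q-value was not run, as the files used here hold no such column.

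Of the comparisons between conditions none passed the threshold under any alternative, and directions turned only when libraries were left out. The ranges with libraries left out were -15.6 to -18.6 points for the gap between K116me2-higher and other regions, -4.25 to 2.42 for its change from ESC to EB, -7.12 to 0.638 for KO against WT and -10.04 to 0.645 for K116A against WT. For the share of marked K116me2-higher regions they were -14.4 to 17.8 between EB and ESC, 0.418 to 16.1 for KO and 3.51 to 19.2 for K116A. With the replicates of each group averaged, the gap was still -17.1. Its exact permutation p (sign flips) of 0.0312 is the smallest value that 6 group means allow. With a replicate block every comparison of conditions had an adjusted exact permutation p of 0.985. The block rests on a shared number alone: deviations of same-numbered libraries from their group means correlated between -0.0119 and 0.508, over 0.1 in 6 of 15 pairs of groups, namely 0.355 to 0.508 among the ESC groups and -0.00464 to 0.180 among the EB groups. Pairing by number within a stage, chosen after seeing the data, gave p = 0.125 by exact permutation for the share of marked K116me2-higher regions in KO and in K116A against WT.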
